A study of Homo sapiens with 6 samples.

Results

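Immediate early response genes are switched on within minutes of a stimulus such as serum, a growth factor or stress, from transcription factors already present in the cell. Signals through the MAP kinases reach serum response factor, its ternary complex partners and CREB, which sit on short promoters, and the resulting mRNAs decay quickly. Many of the products are transcription factors, which in turn set later genes, and others are inhibitors that shut the pathway off.

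The group examined here held 10 genes, taken by symbol: FOS, FOSB, JUN, JUNB, EGR1, IER2, IER3, KLF4, KLF6 and DUSP1. Each symbol was found on 1 row of the tables, out of 53826 entries in all. RNA-seq was performed on A549-TIPARP cells, which carry a stable retroviral TIPARP transgene, and on A549-GFP cells, which carry GFP in the same vector, with 3 libraries per line. The parent line, A549, derives from a human lung adenocarcinoma and is kept in medium with serum. No stimulus is named in the labels. Whether each line was 1 clone or a pool of transduced cells is not given in the sources used here. The titles number the experiments from 1 to 3 and nothing says that they were separate cultures, so p-values measure only the spread between these libraries.

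Of the 10 genes, 8 had more than 2 TPM (the share of its library that a transcript makes up, corrected for its length) in at least 1 of the 6 libraries, the limit for testing, and so did 13181 of all entries. FOSB and EGR1 did not. In brief, none of the 8 tested genes was shown to differ between the lines beyond the spread between libraries, and all 8 were highest in the same library, A549-GFP replicate 2, as were 52.0% of all tested genes, or 6 of the 8 against 31.4% after the libraries were rescaled by their median ratios. The tables hold no read counts, so sequencing depth is unknown and counting errors cannot be stated. No value in the tables is below 1 TPM, so entries at exactly 1 TPM, called the floor here, were read as 1 TPM or less.

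TIPARP itself had 6.79, 11.4 and 3.68 TPM in replicates 1, 2 and 3 of A549-GFP and 131, 90.5 and 123 TPM in those of A549-TIPARP. A549-GFP replicate 2 stood apart from the other libraries. It was the highest of the 6 libraries for 52.0% of the 13181 tested genes, and its median gene lay 0.27 higher, in log2 units, than in the mean library. The epithelial keratin KRT18 was at 4176 TPM in it and between 9272 and 11876 TPM in the other 5 libraries. EPCAM, another epithelial marker, ranged from 126 to 221 TPM over the 6 libraries. The 4 endothelial markers were at the floor in every library, as were 2 of the 5 leukocyte markers, PTPRC and CD3E. The other 3, CD68, LYZ and CD14, were above it and highest within A549-GFP in replicate 2, against 62.5% of all tested genes, with CD68 and CD14 more than 2-fold above both other A549-GFP libraries, against 12.9%. With rescaling 1 of the 3 was more than 2-fold above them, against 5.99%. Of 6 alveolar type II cell markers 4 were at the floor throughout, SFTPC and NKX2-1 among them.

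The promoters are shown for 5 of the genes. FOS, JUN and DUSP1 varied most between libraries among those with a matched motif, and FOSB and EGR1 were at or close to the floor although their promoters carry the same kinds of motif. Promoter windows of 300 bases, 250 before to 50 after the start of the gene, were available for 9 of the 10 genes from RefSeq (GRCh38.p14), and all 9 were identical to hg38 at those positions. IER3 was the exception. Capitals mark matches, on either strand, to TGACGT (the core of the cyclic AMP response element, bound by CREB and ATF proteins), TGACATCA (the AP-1-like site of the JUN promoter), TATAAA (the TATA box) and the CArG box (the site of serum response factor). Windows are written 5′ to 3′ on the strand of the gene.
FOS, chr14:75278578-75278877, plus strand: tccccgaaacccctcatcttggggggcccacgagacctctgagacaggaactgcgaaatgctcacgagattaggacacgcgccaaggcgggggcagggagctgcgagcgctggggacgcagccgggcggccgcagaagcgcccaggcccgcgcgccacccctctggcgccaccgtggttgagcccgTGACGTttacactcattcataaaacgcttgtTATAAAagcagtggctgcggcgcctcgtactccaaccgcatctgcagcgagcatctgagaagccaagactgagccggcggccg
FOSB, chr19:45467746-45468045, plus strand: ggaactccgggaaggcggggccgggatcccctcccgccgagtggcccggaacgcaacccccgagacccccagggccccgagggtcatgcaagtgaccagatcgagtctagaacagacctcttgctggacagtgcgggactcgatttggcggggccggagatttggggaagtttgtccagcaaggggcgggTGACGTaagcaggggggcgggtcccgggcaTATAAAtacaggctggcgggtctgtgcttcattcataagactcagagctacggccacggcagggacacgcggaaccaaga
JUN, chr1:58783998-58784297, minus strand: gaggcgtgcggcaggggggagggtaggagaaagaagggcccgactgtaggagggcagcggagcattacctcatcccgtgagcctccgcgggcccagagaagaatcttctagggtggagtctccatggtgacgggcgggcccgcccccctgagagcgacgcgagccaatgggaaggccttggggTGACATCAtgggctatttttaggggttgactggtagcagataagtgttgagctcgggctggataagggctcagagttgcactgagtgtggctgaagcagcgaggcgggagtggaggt
DUSP1, chr5:172771146-172771445, minus strand: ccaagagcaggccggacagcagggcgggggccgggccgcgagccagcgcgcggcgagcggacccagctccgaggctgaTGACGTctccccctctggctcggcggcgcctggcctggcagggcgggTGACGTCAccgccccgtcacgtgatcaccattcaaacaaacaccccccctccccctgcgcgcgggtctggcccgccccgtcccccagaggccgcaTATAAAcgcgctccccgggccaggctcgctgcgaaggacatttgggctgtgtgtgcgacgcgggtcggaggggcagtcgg
EGR1, chr5:138465229-138465528, plus strand: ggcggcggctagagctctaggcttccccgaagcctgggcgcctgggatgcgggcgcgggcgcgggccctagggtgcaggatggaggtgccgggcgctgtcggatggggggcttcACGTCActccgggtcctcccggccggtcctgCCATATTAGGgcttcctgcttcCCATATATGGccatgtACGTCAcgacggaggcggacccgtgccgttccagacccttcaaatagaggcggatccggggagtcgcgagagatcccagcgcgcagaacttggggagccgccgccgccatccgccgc

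TGACGT was present in 4 of the 9 windows, those of FOS, FOSB, EGR1 and DUSP1, and in 7.98% of 35116 RefSeq windows of the same length. In DUSP1 a pair of matches on opposite strands overlap and form the full palindrome. TATAAA was present in 4 of the 9, those of FOS, FOSB, JUNB and DUSP1, against 11.5% of all windows. It began 33 bases before the start of FOS, 30 before FOSB and DUSP1 and 31 before JUNB. TGACATCA was present in JUN and KLF6, against 2.61% of all windows. The CArG box was present in EGR1 alone, as 2 matches beginning 105 and 83 bases before the start, against 1.29% of all windows. Only exact matches within the windows were sought. A site further upstream or of a variant form would be missed, so a gene without a match may still carry one. The AP-1 site TGACTCA was in none of the 9 windows and in 4.95% of all windows. The windows of IER2 and KLF4 held no match to any of the 5 motifs.

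FOS and FOSB had the same pair of motifs at nearly the same positions and differed in level. FOS (Entrez Gene ID 2353, chromosome 14 of hg38, 75278826 to 75282230, plus strand, 4 exons in the canonical GENCODE 44 transcript) encodes the founding partner of the AP-1 transcription factor, which pairs with a JUN protein through a leucine zipper. Its level was 22.6, 40.9 and 28.0 TPM in replicates 1, 2 and 3 of A549-GFP. In A549-TIPARP it was 13.2, 12.1 and 29.4 TPM. A549-TIPARP replicates 1 and 2 were below every A549-GFP library, but replicate 3 was above A549-GFP replicates 1 and 3, so the lines overlapped. The mean log2 TPM was 4.89 ± 0.43 (SD, n = 3) in A549-GFP and 4.07 ± 0.70 (SD, n = 3) in A549-TIPARP, a fold change of 0.567. By limma the log2 fold change on log2(TPM + 1) was -0.78 (standard error 0.36, 95% interval -1.59 to 0.04), with a limma p of 0.0586 and an adjusted p of 0.994. Without A549-TIPARP replicate 3 it was -1.16, with an unadjusted limma p of 0.00612 and an adjusted p of 1.

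FOSB (Entrez Gene ID 2354, chromosome 19, 45467995 to 45475179, plus strand), the FOS relative with the same role as a JUN partner, was at the floor in all 6 libraries, so no difference was detectable. EGR1 (Entrez Gene ID 1958, chromosome 5, 138465479 to 138469303, plus strand), a zinc finger factor and one of the most serum-sensitive genes known, was at the floor in 4 libraries. It reached 1.43 TPM in A549-TIPARP replicate 2 and 1.38 TPM in A549-TIPARP replicate 3. Neither gene entered the test.

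JUN (Entrez Gene ID 3725, chromosome 1, 58776845 to 58784048, minus strand, 1 exon) encodes the AP-1 subunit that can pair with itself or with FOS. Its level was 11.7, 29.2 and 6.32 TPM in replicates 1, 2 and 3 of A549-GFP, a 4.63-fold range within the line and the widest of the 10 genes there. In A549-TIPARP it was 14.8, 14.9 and 22.1 TPM, a 1.49-fold range. All 3 A549-TIPARP libraries lay between A549-GFP replicate 2 and the other A549-GFP libraries. JUN had a limma log2 fold change of 0.35 (standard error 0.46, 95% interval -0.71 to 1.41, adjusted p = 0.994). Without A549-GFP replicate 2 it was 0.90 (95% interval 0.14 to 1.65), with an unadjusted limma p of 0.0273 and an adjusted p of 0.413. The 3 A549-TIPARP libraries were then above both remaining A549-GFP libraries, as they were for 21.2% of all tested genes. Without A549-GFP replicate 3 the sign turned, to -0.12.

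JUNB (Entrez Gene ID 3726, chromosome 19, 12791486 to 12793315, plus strand, 1 exon) encodes a JUN relative that is a weaker activator on many AP-1 sites. Its level was 40.1, 101 and 46.3 TPM in replicates 1, 2 and 3 of A549-GFP and 45.0, 41.4 and 89.7 TPM in those of A549-TIPARP. A single library was high in each line, replicate 2 in A549-GFP and replicate 3 in A549-TIPARP, and the other 4 libraries lay within 40.1 to 46.3 TPM. For JUNB, limma gave a log2 fold change of -0.05 (standard error 0.40, 95% interval -0.96 to 0.86, adjusted p = 0.998). It was 0.35 without A549-GFP replicate 2 and -0.40 without A549-TIPARP replicate 3.

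**Figure D1:**
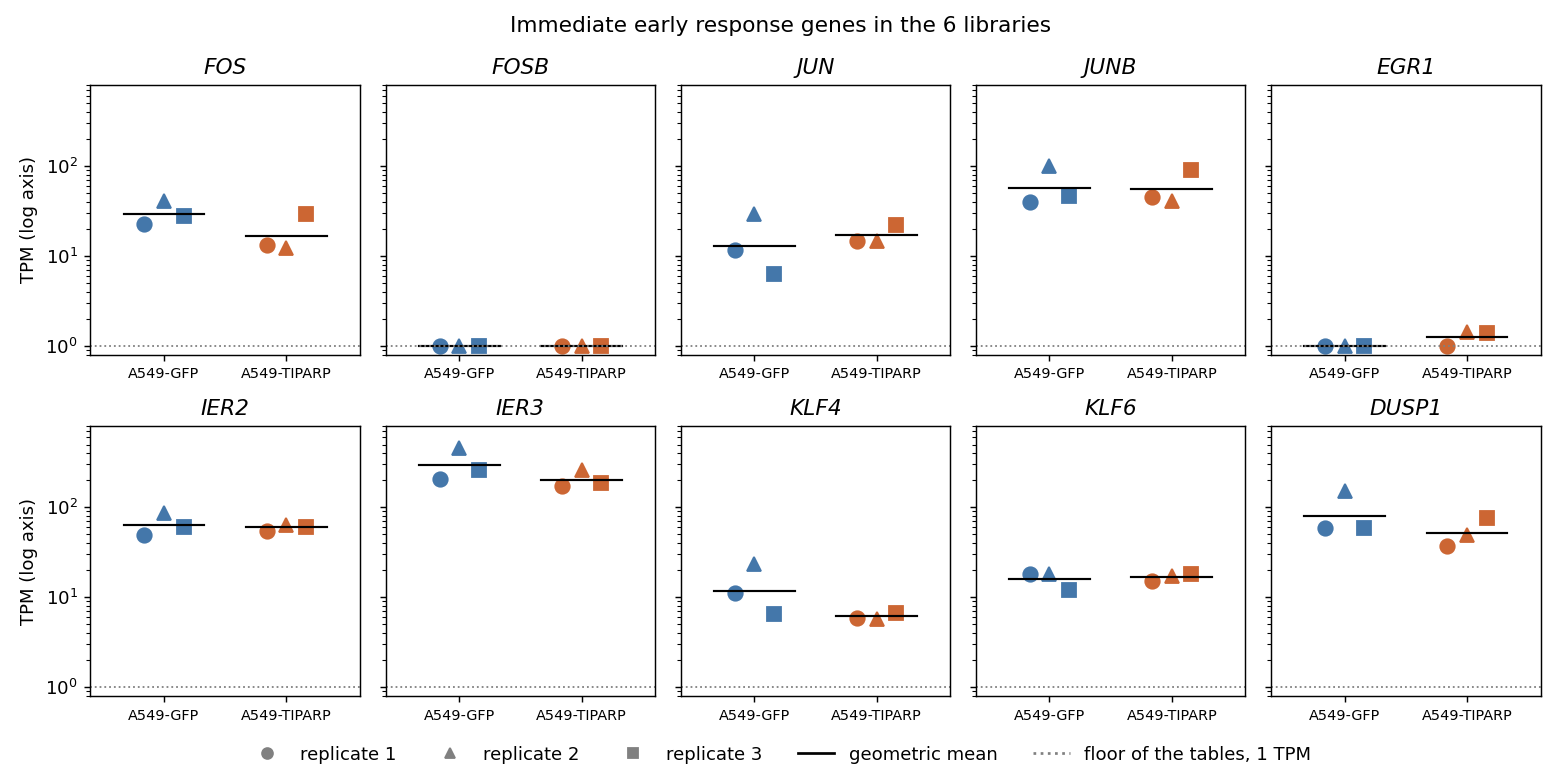
TPM of each of the 10 genes on a log axis, with 1 point per library (circle, triangle and square for replicates 1, 2 and 3), the geometric mean of each line as a bar and the floor of 1 TPM as a dotted line. The triangle of A549-GFP is the highest point in the 8 panels that leave the floor in all libraries, at 460.6 TPM for IER3 and 18.1 TPM for KLF6, while FOSB stays at the floor.

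Of the 10 genes, the largest difference in mean between the lines was that of KLF4. KLF4 (Entrez Gene ID 9314, chromosome 9, 107484852 to 107490482, minus strand, 5 exons) encodes a Krüppel-like factor of epithelial differentiation and a reprogramming factor. Its level was 11.03, 23.3 and 6.48 TPM in replicates 1, 2 and 3 of A549-GFP. In A549-TIPARP it was 5.89, 5.75 and 6.75 TPM, a 1.17-fold range. Only A549-GFP replicate 3 reached down into the range of A549-TIPARP. The mean log2 TPM was 3.57 ± 0.93 (SD, n = 3) in A549-GFP and 2.61 ± 0.12 (SD, n = 3) in A549-TIPARP, a fold change of 0.516. The limma log2 fold change was -0.87 (standard error 0.39, 95% interval -1.76 to 0.03), with a limma p of 0.0557 and an adjusted p of 0.994. Leaving out A549-GFP replicate 2 gave -0.41. Leaving out A549-GFP replicate 3 gave -1.26, where the unadjusted limma p was 0.00753 and the adjusted p was 0.582. After rescaling of each library by the median of its ratios to the mean library, the lines no longer overlapped, with an unadjusted limma p of 0.0361 and an adjusted p of 0.801, and 5.11% of all tested genes then had every A549-TIPARP library below every A549-GFP library.

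KLF6 (Entrez Gene ID 1316, chromosome 10, 3775996 to 3785281, minus strand, 4 exons), a broadly expressed Krüppel-like factor, spanned 0.54 over the 6 libraries on log2(TPM + 1), the smallest span of the 8 tested genes. Its level was 18.0, 18.1 and 12.2 TPM in replicates 1, 2 and 3 of A549-GFP and 15.1, 17.3 and 17.9 TPM in those of A549-TIPARP. The limma log2 fold change was 0.07 (standard error 0.22, 95% interval -0.44 to 0.58, adjusted p = 0.995). It was -0.10 without A549-GFP replicate 3.

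IER3 was the most abundant of the 10 genes in both lines, and in every library it was above each of the other 9 genes. IER3 (Entrez Gene ID 8870, chromosome 6, 30743199 to 30744548, minus strand, 2 exons) encodes a stress-inducible protein that modulates apoptosis and ERK signalling. Its level was 209, 461 and 261 TPM in replicates 1, 2 and 3 of A549-GFP and 174, 258 and 187 TPM in those of A549-TIPARP. A549-TIPARP replicate 2 lay between A549-GFP replicates 1 and 3, so the lines overlapped. The limma log2 fold change was -0.52 (standard error 0.29, 95% interval -1.20 to 0.15), with a limma p of 0.110 and an adjusted p of 0.994. When the experiment number was entered as a replicate block, the unadjusted limma p was 0.0339 and the adjusted p 0.999. The fold change was -0.20 when A549-GFP replicate 2 was left out.

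IER2 (Entrez Gene ID 9592, chromosome 19, 13150411 to 13154911, plus strand, 2 exons), which encodes a nuclear protein induced with FOS, was at 49.9, 85.7 and 59.9 TPM in replicates 1, 2 and 3 of A549-GFP. In A549-TIPARP it was at 55.1, 63.6 and 60.9 TPM, within the A549-GFP range. By limma the difference was -0.09 in log2 units (standard error 0.22, 95% interval -0.59 to 0.42, adjusted p = 0.994), and 0.13 without A549-GFP replicate 2.

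DUSP1 (Entrez Gene ID 1843, chromosome 5, 172768096 to 172771195, minus strand, 4 exons) encodes the nuclear phosphatase that inactivates p38, JNK and ERK and so closes the loop on the genes above. Its level was 58.4, 153 and 58.5 TPM in replicates 1, 2 and 3 of A549-GFP and 37.5, 49.7 and 76.2 TPM in those of A549-TIPARP. A549-TIPARP replicates 1 and 2 were below every A549-GFP library and replicate 3 was above A549-GFP replicates 1 and 3. The limma log2 fold change was -0.62 (standard error 0.40, 95% interval -1.53 to 0.30), with a limma p of 0.161 and an adjusted p of 0.994. It was -0.16 without A549-GFP replicate 2.

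Of the 8 tested genes, 6 averaged lower in A549-TIPARP and 2, JUN and KLF6, averaged higher, against 59.9% of all tested genes with a lower mean. The median log2 fold change of the 8 on the deposited scale was -0.31, and -0.07 over all tested genes. With no filter, where FOSB and EGR1 count among 10 genes, it was -0.07, and without A549-GFP replicate 1 it was -0.54. None was more than 2-fold lower, where 0.432% of all tested genes were, and none was more than 2-fold higher, where 1.53% were. None had a limma adjusted p under 0.05 (0.0152% of all tested genes) or an unadjusted one (3.85%). In no case were the 3 libraries of one line all above those of the other, against 3.54% of genes separated downward and 5.36% upward. Without A549-GFP replicate 2 the median of the 8 was -0.02, with 4 genes lower and 4 higher. JUN was then the 1 gene of the 8 with an unadjusted limma p under 0.05, against 10.5% of all tested genes in either direction and 9.30% higher in A549-TIPARP. None of the 8 was then more than 2-fold higher, against 2.91%, or lower in every A549-TIPARP library, against 6.42%.

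**Figure D2:**
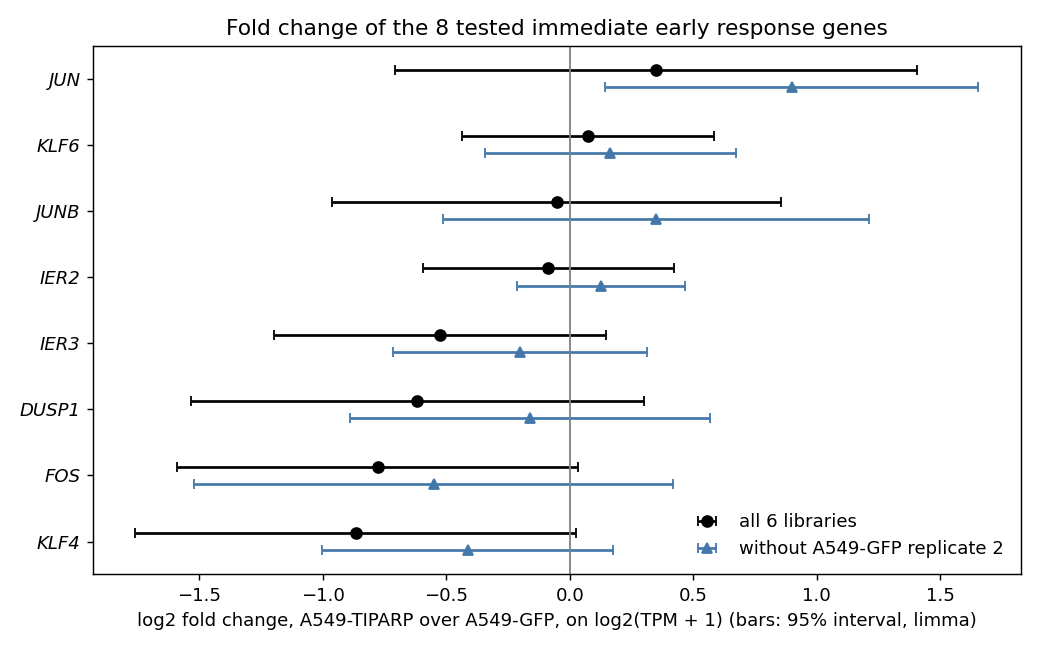
limma log2 fold change (A549-TIPARP over A549-GFP, on log2(TPM + 1)) of the 8 tested genes, with 95% intervals, for all 6 libraries (black circles) and without A549-GFP replicate 2 (blue triangles). Each interval over all libraries includes 0, and the lowest row, KLF4, moves from -0.87 to -0.41 when that library is left out.

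The order of the levels was similar at the top in both lines. IER3, whose geometric mean was 293 TPM in A549-GFP against 203 TPM in A549-TIPARP, was separated from the next gene in each line. DUSP1, IER2 and JUNB followed, at 80.5, 63.5 and 57.1 TPM in A549-GFP and 52.1, 59.8 and 55.1 TPM in A549-TIPARP, and their libraries overlapped from one to the next. FOS, KLF6 and JUN lay below, at 29.6, 15.8 and 12.9 TPM in A549-GFP and 16.8, 16.7 and 17.0 TPM in A549-TIPARP. The libraries of FOS and KLF6 did not overlap in A549-GFP and did in A549-TIPARP. KLF4 was the lowest of the 8, at 11.8 and 6.12 TPM.

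Libraries of one line also differed among themselves. All 8 tested genes were highest of the 6 libraries in A549-GFP replicate 2, against 52.0% of all tested genes, and A549-GFP replicate 2 was the highest A549-GFP library for 62.5% of all tested genes. After median-ratio rescaling 6 of the 8 were, all but JUNB and KLF6, against 31.4% of all tested genes. JUN stood 3.40-fold above the mean of A549-GFP replicates 1 and 3, KLF4 2.76-fold, DUSP1 2.61-fold and JUNB 2.34-fold. IER3 stood 1.97-fold above that mean, FOS 1.63-fold, IER2 1.57-fold and KLF6 1.22-fold. The median tested gene stood 1.30-fold above it, and KLF6 was below that median. JUN, KLF4, DUSP1 and JUNB were more than 2-fold above each of the other A549-GFP libraries, as were 12.9% of all tested genes, and with rescaling JUN was the only one of the 8, against 5.99% of all tested genes. A single library has no replicate, so these differences carry no test.

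**Figure D3:**
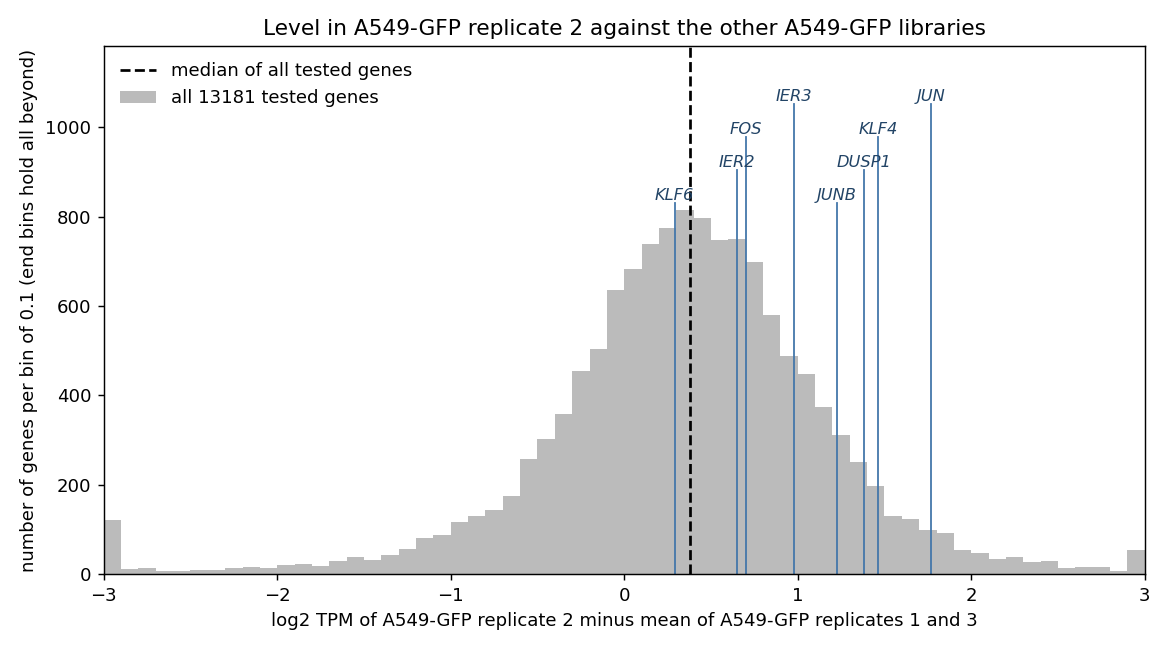
Histogram of the log2 TPM of A549-GFP replicate 2 minus the mean of A549-GFP replicates 1 and 3 for all 13181 tested genes (grey bars, dashed line at the median of 0.38), with the 8 tested immediate early response genes as labelled lines. The lines run from 0.29 for KLF6 to 1.77 for JUN, and 7 of them lie right of the median.

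Within A549-TIPARP, replicate 3 was the highest library for 6 of the 8 genes, all but IER2 and IER3, against 35.5% of all tested genes, and for 7 of the 8 with rescaling, against 44.7%. The excess over the mean of replicates 1 and 2 was 2.32-fold for FOS, 2.08-fold for JUNB, 1.77-fold for DUSP1 and 1.49-fold for JUN. It was 1.16-fold for KLF4 and 1.11-fold for KLF6. FOS was the only one more than 2-fold above each of the other A549-TIPARP libraries, as were 1.56% of all tested genes. FOS, JUN, JUNB and DUSP1 thus had the same pair of libraries on top, A549-GFP replicate 2 and then A549-TIPARP replicate 3. A549-TIPARP replicate 3 was highest or second highest for 32.5% of all tested genes, and the share with that ordered pair on top was not computed. Over all tested genes, A549-GFP replicate 2 and A549-TIPARP replicate 3 deviated from the means of their lines together, with r = 0.60. A shared rise in these libraries was thus not confined to the genes named. The SD of the log2 TPM within A549-GFP had a median of 0.65 over the 8 genes and 0.39 over all tested genes. Within A549-TIPARP it was 0.32 and 0.19.

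The summed level of the 10 genes, with entries at the floor taken as 0, was 421, 911 and 479 TPM in replicates 1, 2 and 3 of A549-GFP and 361, 464 and 492 TPM in those of A549-TIPARP. The summed level of the 5 leukocyte markers was between 31.9 and 79.0 TPM in A549-GFP, highest in replicate 2, and between 32.9 and 48.5 TPM in A549-TIPARP. CD68, a lysosomal protein also made outside the leukocyte lineage, gave most of it, while PTPRC and CD3E were at the floor in all libraries. The sum of the 6 epithelial markers was 10774 TPM in A549-GFP replicate 2 and between 18544 and 23392 TPM in the other 5 libraries. KRT8 and KRT18 carried that difference, while KRT7 and CDH1 were highest in A549-GFP replicate 2. KRT19 was at most 5.36 TPM in A549-GFP and at least 10.9 TPM in A549-TIPARP, with a limma p of 0.000408 and an adjusted p of 0.283. In bulk RNA, fewer cells of a type and less RNA per cell cannot be told apart. The part of this shift in the values of the immediate early genes was not tested.

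The profile of JUN spanned 2.05 over the 6 libraries on log2(TPM + 1), the only one of the 10 to span more than 2. The genes outside the group with the most similar profile, by the root mean square difference of the centred values over 6 libraries, were PLEKHH2 (0.143), ZFP36L1 (0.154) and SLC40A1 (0.162). ZFP36L1, itself an immediate early gene whose product binds AU-rich mRNA, was at 22.8, 59.2 and 16.2 TPM in replicates 1, 2 and 3 of A549-GFP. In A549-TIPARP it was at 36.7, 36.5 and 57.2 TPM, above A549-GFP replicates 1 and 3 as JUN was.

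A list of 42 further immediate early genes was examined in the same way. Of these 37 were tested, while EGR2, EGR3, EGR4 and ARC were at the floor in all libraries and NR4A3 did not reach 2 TPM. None had a limma adjusted p under 0.05. With an unadjusted p under 0.05, 3 were lower in A549-TIPARP, where 0.880% of all tested genes were, and 1 was higher, where 2.97% were. The median log2 fold change of the 37 was -0.22, and -0.002 without A549-GFP replicate 2. A549-GFP replicate 2 was the highest library for 27 of the 37 and was more than 2-fold above both other A549-GFP libraries for 14, against 52.0% and 12.9% of all tested genes. With rescaling the counts were 15 and 8, against 31.4% and 5.99%.

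Of the 37 genes, 7 were lower in every A549-TIPARP library than in any A549-GFP library, against 3.54% of all tested genes, and none was higher in every one, against 5.36%. After rescaling 5 were lower, against 5.11%, and 1 higher, against 6.94%. Without A549-GFP replicate 2, 10 were lower, against 6.42%, and 7 higher, against 21.2%, and the unadjusted limma p was under 0.05 for 3 lower genes, against 1.16%, and 5 higher ones, against 9.30%. FOSL1, the FOS relative that is abundant in many carcinoma lines, was at 28.4, 36.4 and 22.3 TPM in replicates 1, 2 and 3 of A549-GFP and at 15.7, 20.7 and 13.5 TPM in those of A549-TIPARP. By limma its log2 fold change was -0.76 (standard error 0.25), with a limma p of 0.0147 and an adjusted p of 0.966, and -0.59 without A549-GFP replicate 2. NR4A1, an orphan nuclear receptor induced with EGR1, was at 51.0, 39.6 and 56.8 TPM in A549-GFP and at 33.9, 29.7 and 35.0 TPM in A549-TIPARP. For NR4A1 the limma log2 fold change was -0.56 (standard error 0.20), with a limma p of 0.0214 and an adjusted p of 0.994, and here A549-GFP replicate 2 was the lowest A549-GFP library. GADD45B, a stress sensor upstream of p38, was at 72.4, 104 and 96.9 TPM in A549-GFP and at 59.0, 62.8 and 71.0 TPM in A549-TIPARP, with a limma p of 0.0349 and an adjusted p of 0.994. Without A549-GFP replicate 2 its limma p was 0.0660, so it was not among the 3 lower genes of that setting.

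ATF3, a stress-induced AP-1 partner, was at 4.72, 20.3 and 3.67 TPM in replicates 1, 2 and 3 of A549-GFP and at 3.64, 2.86 and 3.53 TPM in those of A549-TIPARP. On the deposited scale the log2 fold change was -1.09, and -0.32 without A549-GFP replicate 2. MAFF, a small partner of AP-1 and NRF2 proteins, was at 4.50, 29.4 and 5.90 TPM in A549-GFP and between 5.01 and 5.69 TPM in A549-TIPARP. CTGF, a matricellular protein under serum response factor and YAP, went the other way. It was at 11.3, 26.2 and 8.09 TPM in A549-GFP and at 29.0, 20.7 and 43.5 TPM in A549-TIPARP, a fold change of 2.22 with a limma p of 0.0311 and an adjusted p of 0.994. A549-TIPARP replicate 2 was below A549-GFP replicate 2, so the lines overlapped for CTGF. Without A549-GFP replicate 2 its fold change was 3.10, with a limma p of 0.00394 and an adjusted p of 0.240.

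**Figure D4:**
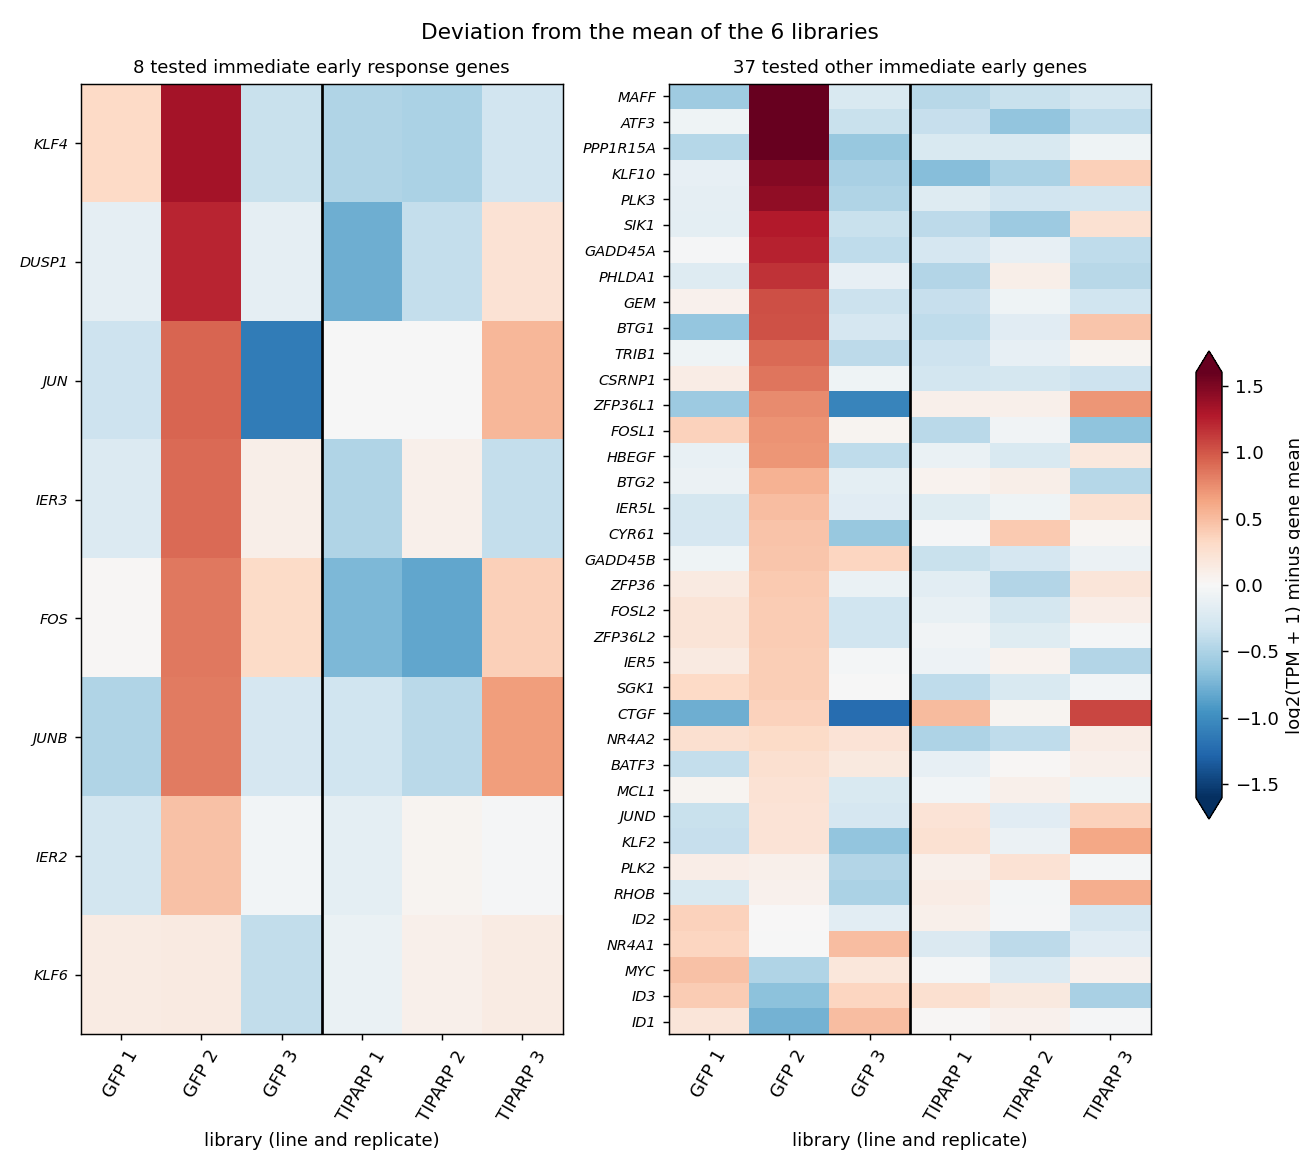
Deviation of log2(TPM + 1) from the mean of the 6 libraries for the 8 tested genes (left) and the 37 tested further immediate early genes (right), 1 column per library, red above and blue below the gene's mean, rows ordered by the deviation in A549-GFP replicate 2. The reddest column is A549-GFP replicate 2, the highest library for 8 of 8 genes on the left and 27 of 37 on the right, against 52.0% of all tested genes, or 6 of 8 and 15 of 37 against 31.4% with rescaling.

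The input side of the pathway was covered by a further list. Of 24 genes for receptors, RAS and RAF proteins, MAP kinases, their substrate kinases and the factors that bind serum response and cyclic AMP elements, 23 were tested. None was past 2-fold, against 0.432% of all tested genes lower and 1.53% higher, and none had an unadjusted limma p under 0.05, against 3.85%, so these counts were near those of all genes. Without A549-GFP replicate 2, 1 had such a p, higher in A549-TIPARP, against 9.30% of all tested genes higher. In that setting 3 were higher in every A549-TIPARP library, against 21.2%. Their log2 fold changes ran from -0.41 to 0.38. A549-GFP replicate 2 was the highest library for 12 of the 23, against 52.0% of all tested genes, and for 4 with rescaling, against 31.4%. It was more than 2-fold above both other A549-GFP libraries for none, against 12.9%.

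Of 17 feedback genes, the dual specificity phosphatases, Sprouty and SPRED proteins and the EGR1 corepressors NAB1 and NAB2, 16 were tested, and none had an unadjusted limma p under 0.05, against 3.85% of all tested genes. Without A549-GFP replicate 2 there were 2, DUSP8 and DUSP10, both higher in A549-TIPARP, against 9.30% of all tested genes higher. A549-GFP replicate 2 was the highest library for 11 of the 16, against 52.0% of all tested genes, and for 10 with rescaling, against 31.4%. It was more than 2-fold above both other A549-GFP libraries for 6 of the 16, against 12.9% of all tested genes, and for 4 with rescaling, against 5.99%. DUSP6, the cytoplasmic ERK phosphatase, was at 6.96, 30.0 and 6.28 TPM in replicates 1, 2 and 3 of A549-GFP and at 7.62, 7.47 and 11.5 TPM in those of A549-TIPARP. DUSP4 followed the levels of DUSP1, at 57.7, 153 and 59.2 TPM in A549-GFP and 47.1, 49.3 and 62.9 TPM in A549-TIPARP. DUSP5 was at 15.0, 49.3 and 22.4 TPM in A549-GFP and between 14.8 and 19.9 TPM in A549-TIPARP. DUSP8, DUSP10 and SPRY1 made up the 6, each at most 8.68 TPM in any library.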

How the data were processed

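Bulk RNA of both lines was sequenced in paired-end mode, 3 libraries each. Reads were mapped by the authors to transcripts of hg38 in Strand NGS, whose settings were the defaults. For every library the authors deposited gene-level log2 TPM. No deposited value is below 0, from which it was inferred that TPM below 1 had been set to 1. Software version and annotation release are not given in the sources used here. Lines and replicate numbers were taken from the sample titles. Values were turned back to TPM (the floor as 1 TPM), and limma 3.58.1 in R 4.3.3, with a variance trend, was run on log2(TPM + 1) of the 13181 genes with TPM above 2 in at least 1 library, with p-values adjusted over all of them by the Benjamini-Hochberg method. Folds against the 2-fold limit, means and SD are on the deposited log2 scale. The fitting code was tested on simulated data. Depth is unknown, so precision is limited to the spread over 3 libraries.

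The 10 genes and the gene lists were chosen with earlier results of these data known. Genes of other lists were named, at most 6 a list, if past 2-fold, then if their unadjusted p was under 0.05, then if A549-GFP replicate 2 was more than 2-fold above both other A549-GFP libraries. For each of the 10 genes spanning more than 2 on log2(TPM + 1), the 3 genes with the closest profile were named. KRT18 and EPCAM were named as identity markers, and KRT7, KRT8, KRT19 and CDH1 after their values were seen. Coordinates and exons are those of GENCODE 44. The alternatives were other pseudocounts, filters, median-ratio rescaling, limma without a trend, a replicate block and each library left out. Rescaling together with removal of A549-GFP replicate 2 was added after the data were seen.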

Additional observations from a re-analysis of the deposited data

How the results depend on the processing

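No alternative gave any of the 8 tested genes an adjusted limma p under 0.05, and FOS, IER3, KLF4 and DUSP1 kept a negative fold change under all 14. With median-ratio rescaling 1 gene, KLF4, had an unadjusted p under 0.05 and 1 gene, again KLF4, had lines that did not overlap, and JUNB turned to 0.013. Rescaling and removal of A549-GFP replicate 2 together gave 1 gene with an unadjusted p under 0.05, JUN, and 2 whose lines did not overlap, JUN and KLF4, with JUNB at 0.30 and IER2 at 0.075. Under that setting 10.4% of all tested genes had such a p and 31.4% had lines that did not overlap, so counts of 1 and 2 among 8 genes are near the background. Removal of single libraries gave between 0 and 2 genes more than 2-fold lower, between 0 and 2 with an unadjusted p under 0.05, and between 0 and 3 whose lines did not overlap. Over all tested genes the same removals left between 0.296% and 1.52% more than 2-fold lower, between 1.92% and 10.5% with an unadjusted p under 0.05, and between 11.7% and 30.7% with lines that did not overlap, against 8.91% with all 6 libraries. The log2 fold changes then ran from -0.40 to 0.35 for JUNB, from -0.26 to 0.13 for IER2, from -0.12 to 0.90 for JUN and from -0.10 to 0.16 for KLF6, each with a change of sign. They ran from -1.16 to -0.55 for FOS, from -1.26 to -0.41 for KLF4, from -0.77 to -0.20 for IER3 and from -0.89 to -0.16 for DUSP1. The lowest was without A549-TIPARP replicate 3 for FOS and DUSP1, without A549-GFP replicate 3 for KLF4 and without A549-GFP replicate 1 for IER3, and the highest was without A549-GFP replicate 2 for all 4. The cause was not tested. Entries at the floor in all 6 libraries take no variance and were left out of the fit without a filter. Same-numbered libraries deviated from the mean of their line with r = 0.41, -0.49 and -0.36 across genes in experiments 1, 2 and 3. Deviations within a line are tied to each other, so these values cannot settle whether the libraries were paired. The main fit took no pairs, and the replicate block was an alternative. With the replicate block 1 of the 8 genes, IER3, had an unadjusted p under 0.05, and 414 of all tested genes did, against 508 without it. With the block 1 of all tested genes had an adjusted p under 0.05, against 2 without it. Over all tested genes, rescaling gave 786 with an unadjusted p under 0.05, rescaling with removal of A549-GFP replicate 2 gave 1365, and removal of single libraries gave between 253 (A549-TIPARP replicate 1) and 1379 (A549-GFP replicate 2). Those with an adjusted p numbered between 1 and 5 under every alternative.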

Other observations

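Other inducible genes were set beside the immediate early genes. Of 12 targets and feedback genes of NF-kappaB 11 were tested. All 11 were highest in A549-GFP replicate 2, against 52.0% of all tested genes, and 10 were with rescaling, against 31.4%. CCL20 and TNFAIP3 passed the limit of 2 TPM only in that library, so the filter fixed its place as their highest. None had a limma adjusted p under 0.05, and 2 had an unadjusted one, NFKBIA and CCL20, both lower in A549-TIPARP, against 0.880% of all tested genes lower and 3.85% in either direction. CCL20 entered the test only through A549-GFP replicate 2, which favoured a lower call in A549-TIPARP. NFKBIA, the inhibitor that NF-kappaB itself induces, was at 99.97, 167 and 115 TPM in replicates 1, 2 and 3 of A549-GFP and at 81.0, 91.4 and 80.1 TPM in those of A549-TIPARP. For NFKBIA the limma log2 fold change was -0.56, with a limma p of 0.0290 and an adjusted p of 0.994, and -0.35 without A549-GFP replicate 2. On the deposited scale 2 of the 11, CCL20 and CXCL2, were more than 2-fold lower in A549-TIPARP, against 0.432% of all tested genes, and without A549-GFP replicate 2 neither was. NFKBIA then still had an unadjusted limma p under 0.05, at 0.0345, against 1.16% of all tested genes lower with such a p. CCL20 had a limma p of 0.00410, but it then had no library above 2 TPM, the limit for testing. That p thus carries no weight. Both genes were lower in every A549-TIPARP library, against 6.42% of all tested genes. CCL20, a chemokine for dendritic cells and lymphocytes, was at 1.63, 7.14 and 1.75 TPM in replicates 1, 2 and 3 of A549-GFP and at the floor or at 1.01 TPM in A549-TIPARP, so its fold is limited by the floor. The neutrophil chemokine CXCL2 was at 36.95 TPM in A549-GFP replicate 2 and between 5.49 and 9.52 TPM in the other 5 libraries, and the lines overlapped. A549-GFP replicate 2 was more than 2-fold above both other A549-GFP libraries for 8 of the 11, against 12.9% of all tested genes, and for 7 with rescaling, against 5.99%. The 8 include CCL20 and TNFAIP3, for which the filter favoured this result. CXCL8, another neutrophil chemokine, was at 61.7 TPM in it and at most 4.37 TPM in any other library. TNFAIP3, a deubiquitinase that restrains NF-kappaB, was at 6.61 TPM in A549-GFP replicate 2 and at most 1.34 TPM in any other library. The chemokine CXCL3 was at 26.2 TPM in A549-GFP replicate 2 and between 4.15 and 6.57 TPM in the other 5 libraries.

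The 10 heat shock genes answer to unfolded protein through HSF1. A549-GFP replicate 2 was the highest for 3 of the 10, against 52.0% of all tested genes, and for 0 with rescaling, against 31.4%. It was more than 2-fold above both other A549-GFP libraries for 0, against 12.9%, which for 10 genes is near the background. HSPB1, a small chaperone, was the 1 gene of the 10 with an unadjusted limma p under 0.05, against 2.97% of all tested genes higher and 3.85% in either direction. It was at 453, 728 and 687 TPM in replicates 1, 2 and 3 of A549-GFP and 945, 953 and 988 TPM in those of A549-TIPARP. For HSPB1 the limma log2 fold change was 0.66, with a limma p of 0.00995 and an adjusted p of 0.892, and 0.79 without A549-GFP replicate 2.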
